A study of Mus musculus with 9 samples.

Results

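The opioid peptide and receptor genes were followed across laser-captured mouse brain neurons of the paraventricular hypothalamus series on visceral and somatic pain. The set was chosen by gene symbol and holds 7 of the 54838 genes in the count table: the peptide precursor genes Pdyn, Penk and Pnoc, and the receptor genes Oprm1, Oprk1, Oprd1 and Oprl1. Each symbol matched exactly 1 gene. Laser capture cuts chosen cells out of a tissue section, and the Smart-3SEQ libraries made from them read RNA near its 3′ end. The labels name 3 groups of 3 libraries each: overlap, cfos (after the immediate early gene Fos, a marker of recent neuronal activity) and mCherry (a red fluorescent protein). The design text names CRD, VFF and double labelling, but the labels do not tie CRD or VFF to mCherry or cfos, so the label names are kept. All 9 libraries are labelled as brain neurons and biological replicates. The sources used here do not give strain, age, treatment, the driver of mCherry or the number of cells or animals per library, and p-values therefore reflect the spread among these libraries, which may be technical.

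Opioid peptides are cut from large precursor proteins in secretory granules. Prodynorphin gives the dynorphins, proenkephalin the enkephalins, and prepronociceptin gives nociceptin, a relative with its own receptor. Their receptors couple to inhibitory G proteins, which lower cyclic AMP, open potassium channels and restrain transmitter release. The mu receptor (Oprm1) is the main target of morphine, the kappa receptor (Oprk1) responds best to dynorphins, the delta receptor (Oprd1) to enkephalins, and the nociceptin receptor (Oprl1) to nociceptin. In the paraventricular hypothalamus, dynorphin is known as a peptide stored together with vasopressin, and enkephalin is made by some of its smaller neurons.

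Coding stretches of the 3 precursors are shown because they carry the feature that joins them as a family, the codons of the opioid core, with the first core of each stretch in capitals, right after a pair of basic residues where processing enzymes cut. They were read from the GENCODE M21 transcripts (build GRCm38), 5′ to 3′ on the minus strand, at chr2:129688106-129688150 for Pdyn, chr4:4134310-4134354 for Penk and chr14:65404854-65404898 for Pnoc. The Pdyn stretch begins dynorphin A, the Penk stretch begins with the first enkephalin core of the precursor and holds a further copy in lower case, and the Pnoc stretch begins nociceptin.
Pdyn: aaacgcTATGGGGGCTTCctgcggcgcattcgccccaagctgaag
Penk: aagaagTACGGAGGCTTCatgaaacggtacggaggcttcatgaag
Pnoc: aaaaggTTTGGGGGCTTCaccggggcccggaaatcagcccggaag
The longest coding sequence of Penk holds 7 copies of the enkephalin core, 6 followed by a methionine codon and 1 by a leucine codon. Pdyn holds 3, all followed by leucine. Pnoc holds 0 enkephalin cores and 1 nociceptin core, which starts with phenylalanine in place of tyrosine.

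The 4 receptors are close relatives, and a stretch of each is shown because it is the longest run of bases that all 4 share. The run of 17 bases is in capitals within windows of 45 coding bases at chr10:6829025-6829069 (plus strand) for Oprm1, chr1:5598730-5598774 (plus) for Oprk1, chr4:132117284-132117328 (minus) for Oprd1 and chr2:181718517-181718561 (plus) for Oprl1.
Oprm1: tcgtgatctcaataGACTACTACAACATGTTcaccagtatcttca
Oprk1: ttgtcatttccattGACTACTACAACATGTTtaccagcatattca
Oprd1: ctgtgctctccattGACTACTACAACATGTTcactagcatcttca
Oprl1: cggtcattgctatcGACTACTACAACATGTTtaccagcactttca
Between any pair of receptors the longest shared run was 17 to 25 bases, the longest being that of Oprk1 and Oprl1. No word of 50 bases from Pdyn, Pnoc, Oprd1 or Oprl1 occurred in a transcript of another gene on either strand. In Oprm1 0.583% of the 50-base words also occurred in Ipcef1, which lies across it on the opposite strand and shares 96 exonic bases with it. In Oprk1 the share was 0.109%, found in transcripts of 522 genes. In Penk it was 8.6%, all of it in the noncoding gene A830012C17Rik on the opposite strand, which had 1 count in all 9 libraries together. Where the strand of a read was not used in counting, reads in such overlaps cannot be told apart.

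The libraries differed in depth, and not all columns were separate samplings. Total counts were 504785 to 597898 in overlap, 700556 to 3414593 in cfos and 877257 to 978877 in mCherry. No gene had more counts in cfos 2 than in cfos 3, and these columns differed by less than sampling noise, with a chi-square of 0.824 per gene where the other 35 pairs had 9.08 to 58.5. They were averaged and counted as 1 sample, so that cfos has n = 2. Likewise, 0 genes had more counts in mCherry 2 than in mCherry 1 and mCherry 3 added together, and mCherry 2 is therefore not an independent library. It was kept as a separate library, so that n = 3 for mCherry overstates the independent libraries and p-values are too small. Fos RNA stood at 66.9, 210.8 and 265.5 CPM (counts per 1000000 counts of the library) in overlap 1, 2 and 3, at 291.2, 20.8 and 22.8 CPM in cfos 1, 2 and 3, and at 30.1, 20.5 and 11.2 CPM in mCherry. The libraries labelled cfos 2 and cfos 3 thus had Fos RNA within the mCherry range, and every direction that involves cfos rests on 1 library with high and 1 averaged pair with low Fos. Summed CPM of 10 pan-neuronal markers were 774.6 to 1263 in overlap, 1705 to 3549 in cfos and 1520 to 1521 in mCherry, with all 10 detected in each group. Summed CPM of 8 oligodendrocyte markers were 378.4 to 1626, 4008 to 6922 and 1276 to 2348 in the same order of groups, and those of 8 astrocyte markers 762.7 to 836.3, 1158 to 3885 and 1068 to 1262. RNA of glia was thus present in every library. All 8 markers of paraventricular neurons were detected in each group, at summed CPM of 400.2 to 1695 in overlap, 726.6 to 815.6 in cfos and 178.7 to 554.7 in mCherry. Oxt alone was at 1133 CPM in overlap 2 and at 397.4 CPM in mCherry 3. In mCherry 1, 2 and 3, Otp was at 0, 1.14 and 1.02 CPM and Crh at 7.27, 1.14 and 0 CPM. Sim1 was at 16.6, 19.4 and 43.9 CPM there, and Pou3f2 at 34.3, 73.0 and 104.2 CPM. Summed CPM of 5 markers of GABA neurons were 25.8 to 115.5 in overlap, 188.4 to 210.0 in cfos and 57.2 to 289.8 in mCherry, those of 8 microglia markers 148.6 to 234.2, 89.2 to 112.8 and 88.9 to 155.8 (Tmem119 was at 0 in cfos and mCherry), and those of 8 endothelial and mural markers 563.6 to 647.8, 468.2 to 598.3 and 360.2 to 391.6 in the same order.

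Most opioid-system counts came from a single pair of genes, the mu receptor Oprm1 and the kappa receptor Oprk1. Together they made up 96 to 100% of the counts of the 7 members in the overlap libraries, 80.5 to 97.8% in cfos and 89.5 to 94.7% in mCherry. The 3 peptide precursors together had 0 to 4 counts per library in overlap, 10 to 23 in cfos and 4 to 12 in mCherry. Annotated exons cover 8037 bases in Oprm1 and 9151 in Oprk1, against 1634 in Penk, 2887 in Pdyn and 2157 in Pnoc. Reads near the 3′ end need not scale with exon length, and whether they do here was not tested, so levels of different genes are given both per exonic kb and, in the plot by library, in CPM. In these pooled captures, fewer cells with a transcript and less of it per cell cannot be told apart. Per exonic kb, the mean level of Oprm1 was 14.8 CPM in overlap, 17.9 in cfos and 13.3 in mCherry, and that of Oprk1 was 10.4, 6.53 and 4.02 CPM. Penk followed at 1.53, 2.82 and 5.53 CPM per exonic kb, which in mCherry put it above Oprk1 on that scale, while in CPM Penk was at 9.04 and Oprk1 at 36.8 in mCherry. The other 4 members were at or below 1.61 CPM per exonic kb in each group.

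**Figure D1:**
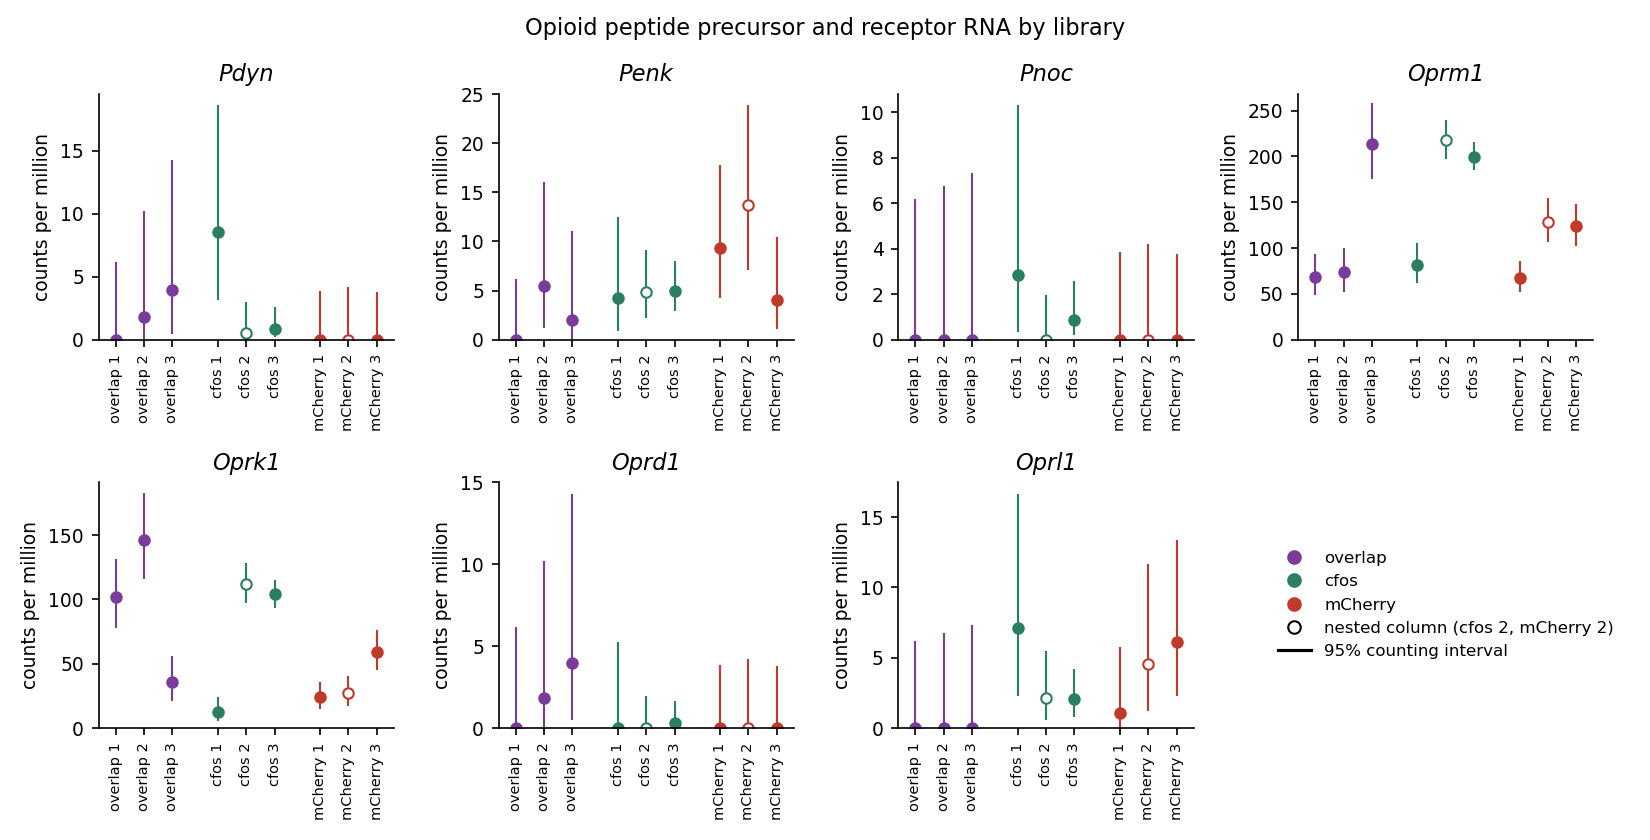
CPM of each member (y axes differ in scale) in every library, with overlap, cfos and mCherry from left to right. Bars are exact Poisson 95% intervals of counting error, and open symbols mark cfos 2 and mCherry 2, which are nested in other columns. Oprm1 reached 214 CPM in overlap 3 and 218 CPM in cfos 2, while Pnoc and Oprl1 were at 0 in all overlap libraries.

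Oprm1 (ENSMUSG00000000766, chromosome 10, 6758506 to 7038198, protein-coding, 31 annotated transcripts) encodes the mu receptor. Its counts were 41, 40 and 108 in overlap 1, 2 and 3, or 68.6, 73.3 and 214 CPM. In cfos 1, 2 and 3 they were 57, 408 and 682, or 81.4, 218 and 200 CPM, and in mCherry 1, 2 and 3 they were 65, 113 and 121, or 67.5, 129 and 124 CPM. Overlap 3 was high among its group, cfos 1 and mCherry 1 were low in theirs, and the ranges of the 3 groups overlapped. Means were 119 ± 82.6 CPM in overlap (SD, n = 3), 144 ± 88.3 CPM in cfos (SD, n = 2) and 107 ± 34.0 CPM in mCherry (SD, n = 3), so the order of the groups lay within their spread. Without mCherry 2 the mCherry mean was 95.6 ± 39.7 CPM (SD, n = 2). The counts of Ipcef1, its neighbour on the other strand, were 7, 19 and 3 in overlap, 4, 17 and 43 in cfos and 3, 13 and 26 in mCherry.

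Oprk1 (ENSMUSG00000025905, chromosome 1, 5588466 to 5606131, protein-coding) encodes the kappa receptor. Overlap 1, 2 and 3 had 61, 80 and 18 counts, or 102, 146.6 and 35.7 CPM. There were 9, 210 and 355 counts in cfos 1, 2 and 3, or 12.9, 112 and 104 CPM, and 23, 24 and 58 in mCherry 1, 2 and 3, or 23.9, 27.4 and 59.2 CPM. Overlap 1 and overlap 2 were above all mCherry libraries, whereas overlap 3 lay within the mCherry range. The cfos libraries were split, with cfos 1 the lowest of all 9 and the nested pair about as high as overlap 1. Group means were 94.8 ± 55.8 CPM in overlap (SD, n = 3), 59.8 ± 66.4 CPM in cfos (SD, n = 2) and 36.8 ± 19.5 CPM in mCherry (SD, n = 3), or 41.6 ± 25 CPM without mCherry 2 (SD, n = 2).

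The balance between both receptors differed between libraries of 1 group. Oprm1 made up 40.2% of the Oprm1 and Oprk1 counts in overlap 1 (exact Clopper-Pearson 95% interval 30.6 to 50.4%) and 33.3% in overlap 2 (25 to 42.5%), but 85.7% in overlap 3 (78.4 to 91.3%). In cfos 1, 2 and 3 the share was 86.4, 66 and 65.8%, and in mCherry 1, 2 and 3 it was 73.9, 82.5 and 67.6%. Overlap 1 and overlap 2 were the only libraries in which Oprk1 had more counts than Oprm1, and their intervals lay below those of the other 7 libraries. These intervals cover counting error only. Over libraries the mean share was 53.1 ± 28.5% in overlap (SD, n = 3), 76.1 ± 14.5% in cfos (SD, n = 2) and 74.6 ± 7.47% in mCherry (SD, n = 3). The difference of -21.6 percentage points between overlap and mCherry had p = 0.4 by a two-sided exact permutation test, where the smallest possible value is 0.1. Without mCherry 2 it was -17.6 points (exact permutation p = 0.6, smallest possible 0.2). Against cfos the difference was -23.1 points (exact permutation p = 0.4, smallest possible 0.2), and cfos minus mCherry was 1.48 points (exact permutation p = 1, smallest possible 0.2).

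**Figure D2:**
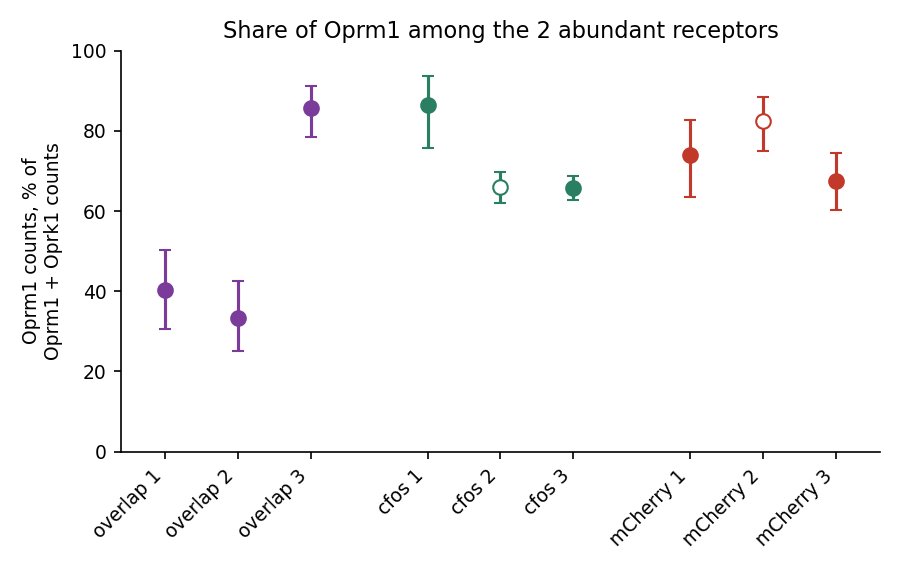
Oprm1 counts as a percentage of Oprm1 plus Oprk1 counts in each library, with exact 95% binomial intervals, for overlap, cfos and mCherry from left to right (open symbols: nested columns). Overlap 1 and overlap 2 lie at 40.2 and 33.3%, and the other 7 libraries between 65.8 and 86.4%.

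Oprd1 (ENSMUSG00000050511, chromosome 4, 132110726 to 132144486, protein-coding), the delta receptor gene, was near the detection limit everywhere. It had 0, 1 and 2 counts in overlap 1, 2 and 3, 0, 0 and 1 in cfos 1, 2 and 3, and 0 in all mCherry libraries. The limit set by a count of 0, taken as 3 counts, lay at 5.02 to 5.94 CPM in overlap libraries, at 0.879 to 4.28 CPM in cfos libraries and at 3.06 to 3.42 CPM in mCherry libraries. A difference in Oprd1 was not detectable at this depth.

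Oprl1 (ENSMUSG00000027584, chromosome 2, 181715016 to 181720985, protein-coding), the nociceptin receptor gene, had 0 counts in all 3 overlap libraries. It had 5, 4 and 7 counts in cfos 1, 2 and 3, or 7.14, 2.14 and 2.05 CPM, and 1, 4 and 6 in mCherry 1, 2 and 3, or 1.04, 4.56 and 6.13 CPM. The overlap libraries were thus the lowest, but they were also the shallowest. Sums of reads were taken over columns that are not nested in others, which are overlap 1 to 3, cfos 1 and 3, and mCherry 1 and 3. Against a floor of 3 counts over the overlap group, Oprl1 was at least 1.6-fold lower in overlap than in cfos (0 against 12 counts) and at least 1.98-fold lower than in mCherry (0 against 7 counts), counting error aside. These bounds rest on few libraries. Counting intervals of the read sums overlapped, at 0 to 2.24 CPM in overlap, 1.51 to 5.09 in cfos and 1.45 to 7.43 in mCherry. Without mCherry 3 no bound remained against mCherry, and without mCherry 1 it was 3.37, while against cfos it was 1.13 without cfos 1, 3.92 without cfos 3 and 1.02 without overlap 1. Without overlap 1 the bound against mCherry was 1.26. Its ligand gene Pnoc (ENSMUSG00000045731, chromosome 14, 65400673 to 65425472, protein-coding) had 0 counts in all overlap and all mCherry libraries and 2, 0 and 3 in cfos 1, 2 and 3. At these depths the 5 cfos counts give no bound above 1 against either group.

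Penk (ENSMUSG00000045573, chromosome 4, 4133531 to 4138819, protein-coding), the enkephalin precursor gene, had the highest mean of the precursors in overlap and mCherry, while in cfos Pdyn had 4.66 CPM and Penk 4.60 CPM. Its counts were 0, 3 and 1 in overlap 1, 2 and 3, or 0, 5.5 and 1.98 CPM. They were 3, 9 and 17 in cfos 1, 2 and 3, or 4.28, 4.81 and 4.98 CPM, and 9, 12 and 4 in mCherry 1, 2 and 3, or 9.35, 13.7 and 4.09 CPM. The value of cfos 1 rests on 3 counts (95% counting interval 0.883 to 12.5 CPM), and the overlap and mCherry ranges share the stretch around 4.09 to 5.5 CPM. From the read sums, the ratio of overlap to mCherry was 0.362 with an exact 95% counting interval from 0.0861 to 1.17, that of overlap to cfos 0.499 (0.124 to 1.49) and that of cfos to mCherry 0.726 (0.344 to 1.59). All 3 intervals include 1 before any spread between libraries is counted.

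Pdyn (ENSMUSG00000027400, chromosome 2, 129686565 to 129699844, protein-coding), the dynorphin precursor gene, had 0, 1 and 2 counts in overlap 1, 2 and 3, and 6, 1 and 3 in cfos 1, 2 and 3. All 3 mCherry libraries had 0. The 6 counts of cfos 1 made up 8.57 CPM, against 0.534 and 0.879 CPM in cfos 2 and cfos 3, so that the level was highest in 1 library. Pdyn had 9 counts over cfos 1 and cfos 3 and 0 in mCherry. Against a floor of 3 counts over the mCherry group it was at least 1.42-fold higher in cfos, counting error aside. Exact counting intervals of these sums overlapped, at 1 to 4.15 CPM in cfos and 0 to 1.9 CPM in mCherry. The bound was lost without cfos 1, without mCherry 1 and without mCherry 3, and was 5.54 without cfos 3. Avp (vasopressin), with which dynorphin is known to be stored, stood at 31.8, 174 and 19.8 CPM in overlap, 40.0, 12.3 and 16.4 CPM in cfos and 2.08, 1.14 and 0 CPM in mCherry. Pomc, the precursor gene of the opioid peptide beta-endorphin and no member of the set, had 1 count in overlap 2 and 0 in the other 8 libraries.

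The levels of Oprm1 and Oprk1 were set beside those of 1428 genes for olfactory and vomeronasal receptors, whose main site is the sensory neurons of the nose and which took 1.69 to 1.82% of the counts in overlap, 0.828 to 1.41% in cfos and 1.68 to 1.83% in mCherry. Per exonic kb, Oprm1 was above 88.8 to 96.9% of these genes in the overlap libraries, above 95.7 to 97.8% in cfos and above 91 to 93.9% in mCherry. Oprk1 was above 86.2 to 94.8%, 86.5 to 94% and 80.7 to 87.6% of them in the same groups. Both were below the 99th percentile of these genes in every library. Standing above most of them takes little, because most were at 0: Pdyn with 1 count in overlap 2 was above 74.2%. Penk was above 82.5, 81.9 and 0% of them in overlap 2, 3 and 1, above 86 to 88.7% in cfos and above 83.3 to 89.1% in mCherry. From 63.2 to 79.6% of these genes were at 0 in a library, and the 90th percentile was 3.37 to 9.62 CPM per exonic kb. How far such background counts enter the members' values was not tested.

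**Figure D3:**
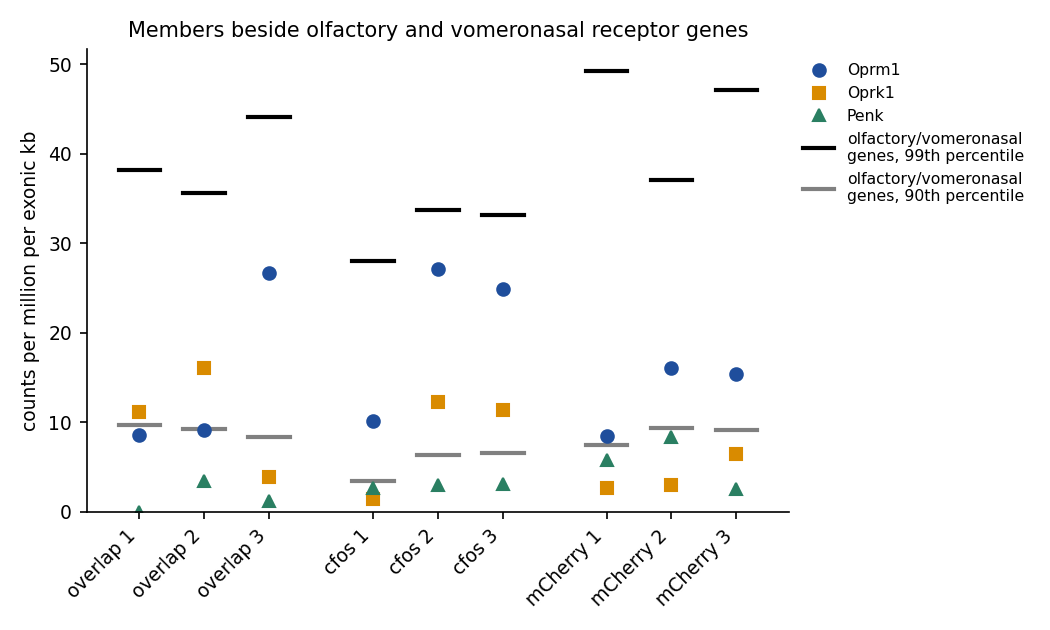
CPM per exonic kb of Oprm1, Oprk1 and Penk in each library (overlap, cfos, mCherry from left to right), beside the 90th and 99th percentiles of the 1428 olfactory and vomeronasal receptor genes as grey and black lines. All points lie below the black lines, and Oprm1 lies above the grey line in 7 of the 9 libraries.

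Oprm1 and Oprk1 were the only members that passed the filter on low counts, and neither differed between overlap and cfos beyond the spread. A quasi-likelihood model (edgeR) was fitted to 16410 genes in 8 replicates. For overlap against cfos, the log2 fold change of Oprm1 was -0.33 ± 0.74 (SE), with adjusted p = 0.918, and that of Oprk1 was 0.55 ± 1.06, with adjusted p = 0.902. Of the members 0 were called, beside 0% of all genes tested, with 1942 genes at an unadjusted p under 0.05 (1272 without mCherry 2). With cfos 1 left out, Oprk1 turned to -0.33, and with cfos 2 and cfos 3 left out it stood at 3.09 and Oprm1 at 0.80. Each sign thus depended on which cfos library was in the fit.

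Between overlap and mCherry, Oprk1 had a larger fitted difference than Oprm1, at 1.38 ± 0.96 (SE) on the log2 scale, and it did not pass (adjusted p = 0.553). Oprm1 had 0.20 (SE 0.67, adjusted p = 0.933). Again 0 members were called, beside 0% of all genes, with 2457 at an unadjusted p under 0.05 (983 without mCherry 2 and 1633 without mCherry 3). The value of Oprk1 stayed between 1.00 and 1.88 when each of the 8 replicates was left out in turn, with 1.01 (SE 1.20) without mCherry 2. That of Oprm1 was -0.56 without overlap 3 and -0.05 without mCherry 1.

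For cfos against mCherry, the log2 fold change of Oprm1 was 0.53 ± 0.74 (SE), with adjusted p = 0.763, and that of Oprk1 was 0.84 ± 1.03, with adjusted p = 0.724. The call count was 0 members beside 0% of all genes, with 2899 at an unadjusted p under 0.05 (1422 without mCherry 2). Without cfos 2 and cfos 3 the values were -0.79 for Oprm1 and -1.90 for Oprk1, and without cfos 1 they were 1.10 and 1.69. With SEs of 0.67 to 1.06 log2 units over the 3 comparisons, differences of the size fitted here could not be separated from 0.

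Other tools called 0 members as well. DESeq2 called 5.48% of genes in overlap versus cfos, 5.51% in overlap versus mCherry and 9.32% in cfos versus mCherry, and neither Oprm1 nor Oprk1 was among them. With no count filter, edgeR tested all 7 members among 30105 genes and called 0.711%, 1.61% and 3.98% of genes in the same comparisons. The smallest adjusted p of a member there was 0.412, for Pdyn in cfos versus mCherry (unadjusted p = 0.0775). Oprl1 had adjusted p = 0.511 in overlap versus cfos and 0.424 in overlap versus mCherry.

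**Figure D4:**
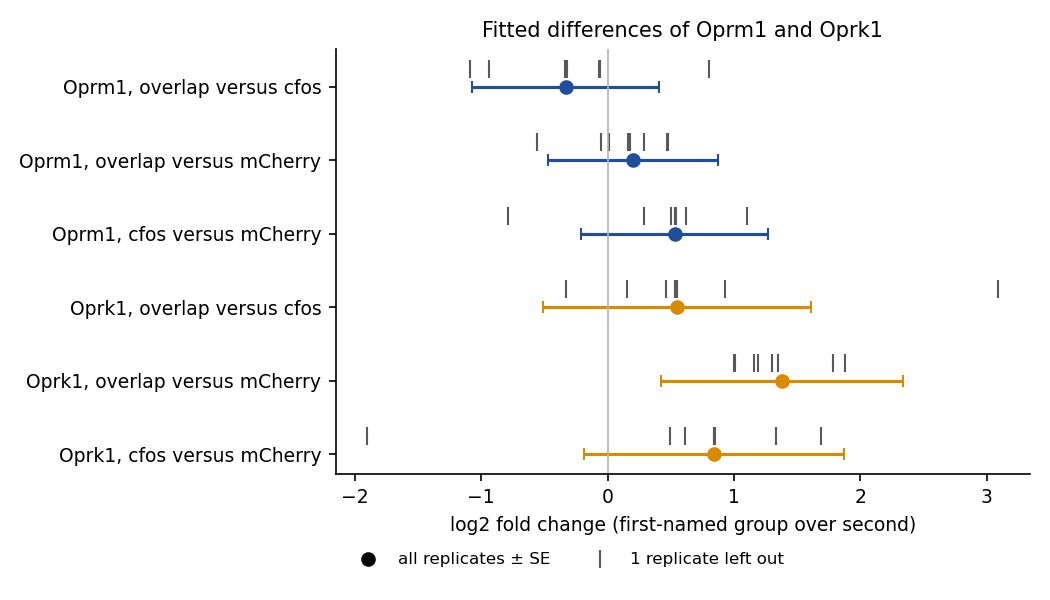
Log2 fold changes of Oprm1 (blue) and Oprk1 (orange) with standard errors in the 3 comparisons, positive where the first-named group is higher. Grey ticks are the values with 1 replicate left out, which for Oprk1 run from -0.33 to 3.09 in overlap versus cfos and from 1.00 to 1.88 in overlap versus mCherry.

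The genes whose pattern across the 8 replicates was nearest to that of each receptor were listed by the root mean square difference in centred log2 CPM, as a description with no test. For Oprm1 these were Fastk (0.26), Map2k5 (0.27) and Snw1 (0.28), against a median of 1.49 over all genes tested. All 3 were highest in overlap 3 or in the averaged cfos pair, as Oprm1 was. For Oprk1 they were D16Ertd472e (0.31), Dyrk1a (0.33) and Tbl3 (0.40), against a median of 1.65. Dyrk1a, a protein kinase gene, stood at 88.6, 126.5 and 43.6 CPM in overlap, 15.7 and 89.3 CPM in cfos 1 and the averaged pair, and 19.7, 45.6 and 71.5 CPM in mCherry.

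The genes that make, break down and relay opioid signals were described by 7 lists with 61 entries in all, chosen with earlier results of these data known. Genes named from a list are mainly those of smallest p in it. How many of all genes tested set a group apart from all other libraries was not counted. By edgeR with the count filter, 0 of the 45 tested genes were called in any comparison. DESeq2 called 0 of the 45 in overlap versus cfos, 3 in overlap versus mCherry (Gnaz, Gng3 and Pcsk1) and 2 in cfos versus mCherry (Gnaz and Pcsk1), or 0, 6.67 and 4.44%, beside 5.48, 5.51 and 9.32% of all genes. Without the filter edgeR called 1 of 61 list genes in cfos versus mCherry, Gnaz, or 1.64%, beside 3.98% of all genes. With all 9 columns as separate samples it called 1 of 41, again Gnaz, or 2.44%, beside 247 of all 14722 genes. Among the peptide-processing enzymes, 6 of 7 passed the count filter. In overlap versus cfos 0 of these 6 were above 0 and 6 below, with a median log2 fold change of -0.87, beside 0.12 for all genes tested. The counts were 2 above and 4 below (median -0.23, beside 0.09) in overlap versus mCherry, and 6 above and 0 below (1.05, beside 0.04) in cfos versus mCherry. The same medians of all genes apply to the other lists, and the counts of signs were not tested. Both comparisons with cfos share its replicates, and cfos 1 was above the averaged pair for all 6 genes. Pam was at 184 against 81 CPM, Scg5 at 79.9 against 23.5 CPM and Pcsk1n at 137 against 54.1 CPM. The averaged pair lay within the overlap range for Pam, Pcsk1n, Pcsk2 and Pcsk1, and above it for Scg5 and Cpe. The part of the lower pan-neuronal marker sums of overlap was not tested.

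Cpe, the carboxypeptidase that trims basic residues from opioid and other peptides, was at 299.4, 309.8 and 172.4 CPM in overlap, 552.4 and 493 CPM in cfos 1 and the averaged pair, and 406.2, 444.6 and 484.2 CPM in mCherry. The overlap libraries were below all others. Its log2 fold change was -1.02 in overlap versus cfos (SE 0.35, adjusted p = 0.368) and -0.74 in overlap versus mCherry (SE 0.32, adjusted p = 0.319). Pcsk1, a convertase that cuts precursors at basic pairs, was at 21.7, 36.7 and 33.7 CPM in overlap, 50 and 25.7 CPM in cfos, and 0, 3.42 and 3.06 CPM in mCherry. The mCherry libraries were below all others, with log2 fold changes of 3.78 in overlap versus mCherry (SE 1.31, adjusted p = 0.275) and 4.07 in cfos versus mCherry (SE 1.37, adjusted p = 0.25) by edgeR. By DESeq2 the adjusted p of Pcsk1 was 0.02 and 0.016, with the nested mCherry 2 counted as a separate library, so these values are too small. Scg5, which encodes a chaperone of a convertase, had -1.74 in overlap versus cfos (SE 1.08, adjusted p = 0.556), and Pam, the peptide-amidating enzyme gene, 1.53 in cfos versus mCherry (SE 0.71, adjusted p = 0.293).

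Among the peptidases that degrade opioid and other small peptides, 7 of 8 were tested. Their median log2 fold change was 0.65 in overlap versus cfos with 5 above and 2 below 0, -0.01 in overlap versus mCherry with 3 and 4, and -1.01 in cfos versus mCherry with 2 and 5. Mme (neprilysin, which cleaves enkephalins) had 1.67, 0 and 0 CPM in overlap, 0 CPM in all cfos replicates, and 26, 16 and 0 CPM in mCherry. The mCherry signal came from mCherry 1 and the column nested in mCherry 1 and mCherry 3. Ece2, an endothelin-converting enzyme of acidic compartments, stood at 1.67, 3.67 and 1.98 CPM in overlap, 24.3 and 13.6 CPM in cfos, and 1.04, 0 and 0 CPM in mCherry. Its log2 fold change was 5.31 in cfos versus mCherry (SE 1.77, adjusted p = 0.249). Ece2 shares 2937 exonic bases with Gm49333, which had 0 counts in all libraries. Anpep, an aminopeptidase gene, had 3.31 in overlap versus cfos (SE 2.16, adjusted p = 0.583).

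Downstream of the receptors, 9 of 11 inhibitory G protein subunit genes were tested. They had a median of -0.98 in overlap versus cfos with 2 above and 7 below 0, -0.48 in overlap versus mCherry with 3 and 6, and 0.10 in cfos versus mCherry with 5 and 4. Gnaz, which encodes the alpha subunit Gz that opioid receptors can engage, was at 122, 201.6 and 126.8 CPM in overlap, 291.2 and 289.5 CPM in cfos, and 46.7, 39.9 and 46 CPM in mCherry. The 3 groups did not overlap, with cfos highest and mCherry lowest, and the share of all genes that separate so was not counted. The log2 fold change was 2.76 in cfos versus mCherry (SE 0.49, unadjusted p = 0.000229), 1.78 in overlap versus mCherry (SE 0.45, unadjusted p = 0.00279) and -0.98 in overlap versus cfos (SE 0.48, unadjusted p = 0.0694). None passed by edgeR after adjustment (adjusted p = 0.166, 0.257 and 0.455). By DESeq2 Gnaz had adjusted p = 1.62e-06 in cfos versus mCherry and 0.00297 in overlap versus mCherry. That fit counts the nested mCherry 2 as a separate library, so these p-values are too small. DESeq2 was not run without mCherry 2. Gng3, a neuronal gamma subunit, was at 56.9, 73.3 and 71.3 CPM in overlap, 227 and 103 CPM in cfos, and 258.7, 196.1 and 223.7 CPM in mCherry. Its overlap values lay below all others (log2 fold change -1.27, SE 0.50, adjusted p = 0.402 against cfos, and -1.72, SE 0.47, adjusted p = 0.257 against mCherry by edgeR). By DESeq2 the adjusted p of Gng3 was 0.00377 against mCherry, with the same limit from mCherry 2. Gnb4, a beta subunit gene, had -1.43 in cfos versus mCherry (SE 0.77, adjusted p = 0.359). Gng3 shares 398 exonic bases with Bscl2 on the opposite strand, while Gnaz shares 0 with Rsph14.

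GIRK channels are the potassium channels that opioid receptors open through G protein beta and gamma subunits. Of the 4 genes 3 were tested. Their median log2 fold change was -2.73 in overlap versus cfos, with 1 above and 2 below 0. It was -2.37 in overlap versus mCherry with 0 and 3, and 0.18 in cfos versus mCherry with 2 and 1. Kcnj9 was at 6.69, 20.2 and 0 CPM in overlap, 103 and 19.7 CPM in cfos, and 36.4, 63.8 and 59.2 CPM in mCherry. The averaged cfos pair thus lay below overlap 2 for Kcnj9, and cfos 1 alone was high. Kcnj3 was at 0, 3.67 and 1.98 CPM in overlap, 40.0 and 6.81 CPM in cfos, and 7.27, 9.12 and 14.3 CPM in mCherry, so the overlap libraries lay below the others for this gene (log2 fold change -3.52, SE 1.54, adjusted p = 0.413 against cfos, and -2.37, SE 1.43, adjusted p = 0.477 against mCherry). It shares 1621 exonic bases with Gm26794 on the opposite strand, which had 0 counts in all overlap libraries, 0, 45 and 72 in cfos and 8, 61 and 93 in mCherry, and the part of such reads in Kcnj3 was not tested. Kcnj6 spread widely within each group. It had -0.85 (SE 1.02, adjusted p = 0.772) in overlap versus mCherry and 0.31 (SE 1.14, adjusted p = 0.959) in overlap versus cfos. The summed pan-neuronal markers were also lower in overlap than in both other groups, and their part in these values was not tested.

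Adenylyl cyclases, the enzymes that inhibitory G proteins restrain, had 7 of 8 genes tested and medians of -0.02, 0.60 and 0.06 in overlap versus cfos, overlap versus mCherry and cfos versus mCherry. Adcy8 had -1.50 in overlap versus mCherry (SE 0.54, adjusted p = 0.283). Adcy6 had 1.04 in overlap versus cfos (adjusted p = 0.764) and 1.10 in overlap versus mCherry (adjusted p = 0.65), while Adcy7 had 0.96 (adjusted p = 0.563) and Adcy9 1.29 (adjusted p = 0.54) in cfos versus mCherry. Of the kinases, arrestins and RGS proteins that end receptor signalling, 10 of 15 were tested. In overlap versus cfos 9 of them were below 0 (median -0.66, beside 0.12 for all genes tested). Below 0 were 7 in overlap versus mCherry (-0.40, beside 0.09) and 2 in cfos versus mCherry (1.09, beside 0.04). The cfos replicates were uneven, with cfos 1 above the averaged pair for all tested genes of this list but Arrb1. Grk3 was at 382.6 against 66.2 CPM, Arrb2 at 41.4 against 8.70 CPM and Grk6 at 37.1 against 13.2 CPM. Arrb1 was at 51.4 against 65.8 CPM. Grk2, the kinase best known for desensitising opioid receptors, had -2.96 in overlap versus cfos (SE 1.44, adjusted p = 0.451), with 62.8 CPM in cfos 1 and 7.57 CPM in the averaged pair. Arrb1, a beta-arrestin gene, had -1.90 in overlap versus cfos (SE 1.10, adjusted p = 0.526). Grk4 was at 15, 3.67 and 27.7 CPM in overlap, 2.85 and 1.89 CPM in cfos and 0 CPM in all mCherry libraries, and did not pass (adjusted p = 0.609 in overlap versus cfos, 0.262 in overlap versus mCherry). Rgs9, an RGS protein of striatal neurons, was at 11.7, 22 and 23.8 CPM in overlap, 35.7 and 22.7 CPM in cfos and 6.23, 2.28 and 1.02 CPM in mCherry (adjusted p = 0.904 in overlap versus cfos, 0.335 in overlap versus mCherry and 0.263 in cfos versus mCherry). Drd1, a dopamine receptor gene of striatal neurons shown here after its values were seen, was at 35.1, 47.7 and 7.92 CPM in overlap, 37.1, 101 and 96.4 CPM in cfos 1, 2 and 3, and 6.23, 9.12 and 10.2 CPM in mCherry. Both genes were thus low in mCherry, and the part of striatal cells in the values of Rgs9 was not tested.

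Of 8 genes listed as opioid receptor partners 3 were tested, and whether each acts with the receptors of this set was not tested. Gprasp1, whose protein steers delta receptors to lysosomes, was at 165.6, 241.9 and 138.7 CPM in overlap, 752.3 and 298.2 CPM in cfos, and 273.2, 259.9 and 189 CPM in mCherry. Both cfos values were above all others (log2 fold change -1.51, SE 0.45, adjusted p = 0.354 for overlap versus cfos, and 1.12, SE 0.45, adjusted p = 0.263 for cfos versus mCherry). Gprasp1 shares 456 exonic bases with Armcx5 and 36 with Bhlhb9. Gprasp2 had -1.47 in overlap versus cfos (SE 0.68, adjusted p = 0.436), and Ogfrl1 0.66 in overlap versus mCherry (SE 0.65, adjusted p = 0.709).

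**Figure D5:**
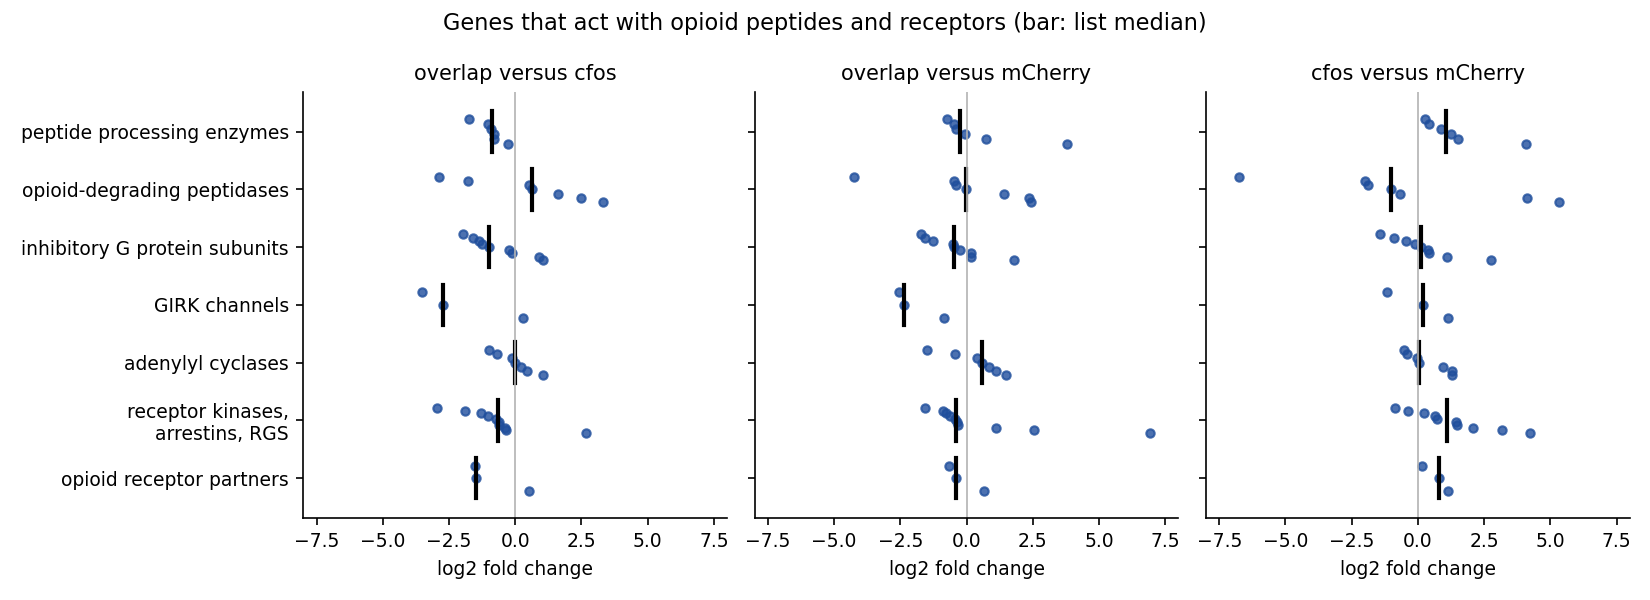
Log2 fold changes of the tested genes of 7 lists around opioid signalling in overlap versus cfos, overlap versus mCherry and cfos versus mCherry, with black bars at the list medians. The GIRK channel medians, each of 3 genes, lie at -2.73 and -2.37 in the comparisons that involve overlap, with Kcnj6 at 0.31 in overlap versus cfos. No gene shown passed the adjusted threshold in this edgeR fit.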

How the data were processed

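The authors deposited raw counts per gene in 9 columns, matched to the samples by title. Per the labels' protocols, laser-captured material was lysed in the tube and Smart-3SEQ libraries followed. The submitters' processing notes name the build mm10 and the tools featureCounts, UMI-tools, STAR and Trim Galore. Tool versions, annotation, strand setting and whether duplicates were removed by molecular identifiers: not given in the sources used here.

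The columns cfos 2 and cfos 3 entered as their rounded mean. Genes were filtered by filterByExpr by group, scaled by TMM (factors 0.922 to 1.076) and tested with edgeR 4.0.16 (R 4.3.3) by 1 quasi-likelihood fit over 3 groups, with Benjamini-Hochberg adjustment at 0.05. The SE is the log2 fold change over the square root of F. The fit was run on simulated counts with less spread than these data, independent columns and large changes in genes of high count. That run does not show how well the fit finds changes here. CPM are counts per 1000000 counts of a library, without TMM. Likeness used log2 CPM with a prior count of 2. Coordinates, exon lengths and sequences came from GENCODE M21, which 54723 identifiers matched. Alternatives were DESeq2 1.42.0, its size factors, no filter, all 9 columns, a replicate block and each replicate left out.

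Named were the 7 members, Pomc, Fos, genes of smallest p in 7 pathway lists (up to 2 per list and comparison) and 3 genes nearest to each tested member. Avp and other single markers, further genes of the pathway lists, Ipcef1 and other overlapping genes were added after their values were seen. The result of 1 marker list is not reported here. Members and lists were chosen with earlier results of these data known.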

Additional observations from a re-analysis of the deposited data

How the results depend on the processing

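The calls over all genes moved most with the tool. Where edgeR called 0 genes in each comparison, DESeq2 called 900 in overlap versus cfos, 905 in overlap versus mCherry and 1529 in cfos versus mCherry. DESeq2 was not run without the nested mCherry 2. Without a count filter edgeR called 214, 484 and 1197, and with all 9 columns 15, 0 and 247; the last treats nested columns as separate. No member was among any of these calls. With DESeq2 size factors or with any 1 replicate left out, edgeR called 0 in each comparison. The omissions for the Pdyn and Oprl1 bounds, for the receptor means and share, and the other settings for pathway genes were chosen after seeing the data. The DESeq2 size factors moved the median of all genes from 0.09 to -0.03 in overlap versus mCherry and from 0.04 to -0.08 in cfos versus mCherry, and turned no sign of Oprm1 or Oprk1. With 1 replicate left out, Oprm1 ranged from -1.09 to 0.80 in overlap versus cfos, from -0.56 to 0.48 in overlap versus mCherry and from -0.79 to 1.10 in cfos versus mCherry. Oprk1 ranged from -0.33 to 3.09 (0.93 without overlap 3), from 1.00 to 1.88 and from -1.90 to 1.69. Where 1 cfos replicate remained, it was assumed to vary like the other groups. Deviations of same-numbered libraries from their group means had correlations of -0.06 to 0.05. The nested columns distort these deviations, so the values cannot decide whether the numbers pair libraries. A replicate block with all 9 columns called 0 genes in each comparison, and left Oprk1 at 0.57, 1.52 and 0.95 and Oprm1 at -0.55, 0.11 and 0.65. Depth limits Pdyn, Pnoc, Oprd1 and Oprl1, where a single read in an overlap library is worth more CPM than in the others.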
